A study of Mus musculus with 12 samples.

Results

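The genes described here encode histone lysine demethylases, the enzymes that remove methyl groups from lysines of histone tails. There are 9 of them, Kdm3a, Kdm3b, Kdm2a, Kdm2b, Kdm4a, Kdm4b, Kdm4c, Kdm5b and Kdm6b, found by their Ensembl identifiers. The counts list 46983 genes, of which 27093 had at least 1 read in the 12 libraries. Kdm3a came into the list because the study had already selected it from these libraries as a gene that was lower in diabetes-exposed Hif1a+/- hearts and as a direct HIF-1 target. Its values below are therefore a description and carry no test. The other 8 genes, and 13 further demethylase genes, were fitted together with all genes. Kdm5a, 1 of the 13, was also in a list that the study made from these libraries, so its results are not independent evidence.

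RNA from the left ventricle (LV) of 12 mice aged 12 weeks was read as 3′-seq libraries, which count the 3′ ends of transcripts. The mice were offspring of FVB females mated with Hif1a+/- males, and 4 groups of 3 were formed: Wt and Hif1a+/- from non-diabetic pregnancy, and Wt and Hif1a+/- from diabetic pregnancy. Diabetes of the mother was induced with streptozotocin, which destroys the insulin-producing cells, so the offspring were exposed before birth and were not treated themselves. The Hif1a+/- mice carried 1 null allele in every cell, not in the heart muscle alone, and each group was drawn from several litters. The labels give these animals as female, whereas the study's text gives males. In 11 libraries the reads had the male pattern, with 3566 to 7701 reads of 4 Y-linked genes and 5 to 176 of Xist. The library of exposed Hif1a+/- mouse 72 had the female pattern, with 26 and 3599.

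Demethylases fall into a small amine oxidase family (Kdm1a, Kdm1b) and the large JmjC family, whose members need iron, oxygen and 2-oxoglutarate. JmjC enzymes thereby share their cosubstrates with the hydroxylases that mark HIF-1α for degradation. Several JmjC genes, Kdm3a and Kdm4b among the best known, are induced by hypoxia through HIF-1, and Kdm3a removes methyl groups from lysine 9 of histone H3, a mark of silent chromatin.

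Kdm3a (ENSMUSG00000053470) lies on the minus strand at chr6:71588972-71632990 of GRCm38 and overlaps no other annotated gene. The core letters that HIF-1 binds are ACGTG or GCGTG. Both were searched on both strands in the RefSeq promoter windows of GRCm38.p6, which run from 250 bases before a transcript start to 50 after it. Of the 22 demethylase genes 16 had a window, and 12 of these held a core. Over all 27025 genes with a window, 46.7% held one, so a match is a description and not a binding site. No window was listed for Kdm3b, Kdm2a, Kdm4b, Kdm6b, Hr and Kdm5a. The stretches below are those of Kdm3a, of Kdm7a, a further gene with low values in diabetes-exposed Hif1a+/-, and of an X and Y gene pair that matters for 1 library. Capitals mark the core letters, and where the core runs over both strands the joined letters are in capitals.
Kdm3a, chr6:71632928-71632956, minus strand: ccgggaggctgtGCGTGtcttgtgagaga
Kdm7a, chr6:39206896-39206924, minus strand: cggagaccgagaACGTGcgcgggacgcac
Kdm6a, chrX:18162515-18162574, plus strand: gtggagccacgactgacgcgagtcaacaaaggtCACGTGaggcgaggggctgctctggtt
Uty, chrY:1245760-1245819, minus strand: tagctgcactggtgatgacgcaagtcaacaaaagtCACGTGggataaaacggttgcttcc
The single core of Kdm3a began 27 bases before the first of its 3 RefSeq starts, and the windows of the other 2 starts held none. In GENCODE this stretch is already inside the gene. Kdm6a and Uty, a pair that descends from 1 ancestral gene, both held the palindrome that reads as ACGTG on either strand, with the plus-sense core beginning at -26 in Kdm6a and at -24 in Uty.

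Levels are given as CPM, the reads of a gene scaled to the same total in every library, here with TMM factors. The libraries held between 16132442 and 39812939 counts. Since the values are read ends from whole tissue, fewer cells that express a gene and less RNA per cell cannot be told apart. The muscle markers listed as ventricular, Myh6, Actc1, Tnnt2, Tnni3, Myl2 and Myl3, summed to between 71872 and 83829 CPM. Those listed as atrial summed to between 25.2 and 70.8. Myl2 alone lay between 7817 CPM in unexposed Wt and 12441 in exposed Wt. Heart muscle markers were therefore present, but the first sum by itself does not tell ventricle from atrium. Hif1a itself was not lower in the Hif1a+/- groups: it ranged from 55.7 to 71.8 CPM in Wt and from 78.8 to 89.4 in Hif1a+/- without maternal diabetes, and from 47.9 to 59.3 and from 64.8 to 81.5 with it. This null allele lacks an exon near the 5′ end, so reads from the 3′ end do not check the genotype, which is used as labelled.

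Kdm3a was lowest in diabetes-exposed Hif1a+/-. In unexposed Wt its levels were 44.6, 38.5 and 33.3 CPM in mice 25, 42 and 89. In diabetes-exposed Wt they were 38.7, 39.3 and 28.1 in mice 50, 7 and 80, and in unexposed Hif1a+/- 36.3, 35.3 and 38.4 in mice 14, 32 and 44. In diabetes-exposed Hif1a+/- they were 27.5, 26.2 and 26.4 in mice 66, 72 and 77, the 3 lowest values of the 12. The next value, 28.1 in Wt mouse 80, lay close above them, so this Wt mouse was nearer to the exposed Hif1a+/- group than to the other mice of its own.

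The group means of Kdm3a followed the order unexposed Wt, 38.8 ± 5.68 CPM (SD, n = 3), unexposed Hif1a+/-, 36.6 ± 1.61, exposed Wt, 35.3 ± 6.32, and exposed Hif1a+/-, 26.7 ± 0.721. The first 3 groups overlapped one another, and neighbours among them differed by less than the larger of their SDs. Exposed Hif1a+/- overlapped none of the other 3. The fitted log2 fold (± SE, edgeR, 12 libraries in 1 fit) was -0.54 ± 0.13 against unexposed Wt, a level 0.690 times as high, -0.46 ± 0.13 against unexposed Hif1a+/- and -0.41 ± 0.13 against exposed Wt. Those 3 comparisons share the exposed Hif1a+/- libraries. Without that group the differences were small, -0.13 ± 0.13 for diabetic against non-diabetic pregnancy in Wt and -0.08 ± 0.13 for Hif1a+/- against Wt without maternal diabetes. The genotype by diabetes interaction, which is the amount by which the diabetes difference in Hif1a+/- exceeds that in Wt, was -0.33 ± 0.18 on the log2 scale. Each library held between 491 and 1154 Kdm3a reads. The SE of the folds comes from a spread estimated over the 4 groups. The small SD in exposed Hif1a+/- rests on 3 mice and does not show that mice of this group are even.

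**Figure D1:**
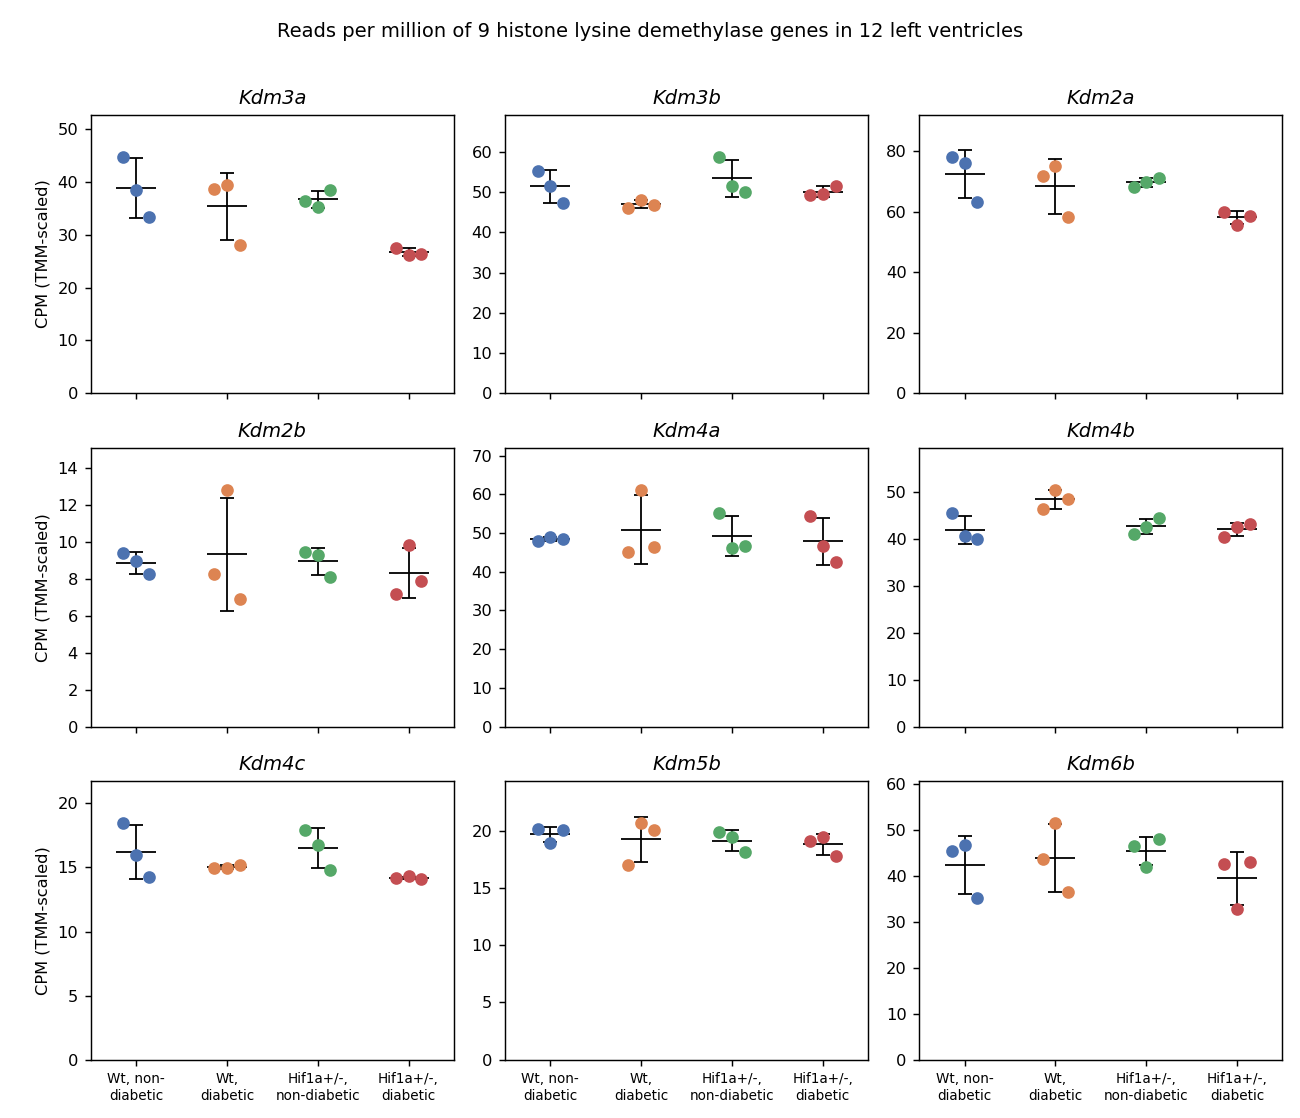
Each panel shows 1 gene, with the level in CPM (TMM-scaled, axis from 0) on the y axis and the 4 groups on the x axis; points are mice, the long dash is the group mean and the bars are the SD of 3 mice. The 3 exposed Hif1a+/- points of Kdm3a lie between 26.2 and 27.5, below the other 9, Kdm2a has a similar order, and Kdm4b stands highest in exposed Wt.

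Kdm2a, which demethylates lysine 36 of histone H3 at CpG islands, had a pattern close to that of Kdm3a. Its levels were 78.1, 76.3 and 63.4 CPM in unexposed Wt and 71.9, 75.2 and 58.2 in exposed Wt. They were 68.3, 69.8 and 71.2 in unexposed Hif1a+/- and 59.9, 55.8 and 58.7 in exposed Hif1a+/-. The exposed Hif1a+/- mice lay below both unexposed groups, while Wt mouse 80, at 58.2, fell among them. The log2 fold of exposed Hif1a+/- was -0.32 ± 0.10 against unexposed Wt, with an unadjusted p of 0.00929 and an adjusted p of 0.475 by edgeR's quasi-likelihood test, and -0.26 ± 0.10 against unexposed Hif1a+/-, with an unadjusted p of 0.0259 and an adjusted p of 0.371. Neither passed the threshold of 0.1. Its relative Kdm2b, which acts with a Polycomb complex, ranged from 6.91 to 12.8 CPM with both ends in exposed Wt, and its folds lay within 1 SE of 0 in the 6 comparisons. Kdm2b shares its 3′ end with Rnf34 on the other strand, which had about 1029 reads per library against 206 for Kdm2b, and the strand setting of the counting is not given in the sources used here, so the Kdm2b level is uncertain.

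Kdm3b, the closest relative of Kdm3a and also a demethylase of lysine 9, did not share its pattern. It lay between 47.3 and 55.4 CPM in unexposed Wt, 46.1 and 48.1 in exposed Wt, 50.1 and 58.7 in unexposed Hif1a+/- and 49.3 and 51.6 in exposed Hif1a+/-. Both Hif1a+/- groups lay above exposed Wt, and the other groups overlapped. For exposed Hif1a+/- against exposed Wt the log2 fold was 0.09 ± 0.09 (edgeR adjusted p = 0.874). Against unexposed Wt its log2 fold was -0.03 ± 0.09, where that of Kdm3a was -0.54 ± 0.13.

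Among the Kdm4 genes, which remove methyl groups from lysines 9 and 36 of histone H3, Kdm4b was high in exposed Wt. Its levels there were 46.3, 50.3 and 48.3 CPM, and the other 9 mice lay between 39.9 and 45.3. The log2 fold was 0.21 ± 0.08 for diabetic against non-diabetic pregnancy in Wt (unadjusted p = 0.0216, edgeR adjusted p rounded to 1.0). It was -0.20 ± 0.08 for Hif1a+/- against Wt with maternal diabetes (unadjusted p = 0.0222, edgeR adjusted p = 0.862), and the 2 comparisons share the exposed Wt libraries. The interaction for Kdm4b was -0.23 ± 0.11 (unadjusted p = 0.0615, edgeR adjusted p = 0.998). Kdm4b therefore did not follow Kdm3a, although both are textbook hypoxia-induced demethylases, and its level in exposed Hif1a+/-, 41.9 ± 1.37 CPM, lay next to that in unexposed Wt, 41.9 ± 2.99 (SD, n = 3).

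Kdm4c was even within each exposed group, from 14.9 to 15.2 CPM in Wt and from 14.1 to 14.3 in Hif1a+/-, and wider in the unexposed ones, from 14.2 to 18.4 in Wt and from 14.8 to 17.9 in Hif1a+/-. Its log2 fold was -0.19 ± 0.11 for exposed Hif1a+/- against unexposed Wt (edgeR adjusted p = 0.612). Kdm4a ranged from 42.6 to 61.1 CPM over the 12 mice with its highest value in exposed Wt mouse 7, and its group means lay between 47.9 and 50.9.

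Kdm5b, which removes methyl groups from lysine 4 of histone H3, the mark of active promoters, was even across the groups, with means between 18.8 and 19.7 CPM and a log2 fold of -0.07 ± 0.10 for exposed Hif1a+/- against unexposed Wt. Kdm6b, which removes the Polycomb mark on lysine 27 and is induced in activated macrophages, had levels of 42.5, 32.8 and 43.1 CPM in exposed Hif1a+/- and from 35.1 to 46.7 in unexposed Wt. Its log2 fold between these groups was -0.10 ± 0.15 and 0.02 ± 0.15 without mouse 72, which held the low value.

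Over the 20 demethylase genes tested other than Kdm3a, 0 passed an adjusted p of 0.1 in any of the 6 comparisons by edgeR, against 0.0% of the 14706 genes tested (no gene passed in this fit). By DESeq2, the tool of the study, 1 gene passed in 1 comparison. It was Kdm5a in diabetic against non-diabetic pregnancy in Hif1a+/- (DESeq2 adjusted p = 0.0584), where 1.44% of all genes passed. The study had already placed Kdm5a in a list made from these libraries with the same tool, so this pass is not independent evidence. DESeq2 passed 0 of the 20 in the other 5 comparisons, beside 0.453% of all genes in exposed Hif1a+/- against unexposed Wt, 0.155% and 0.00369% in Hif1a+/- against Wt with and without maternal diabetes, 0.0148% in diabetic against non-diabetic pregnancy in Wt and 0.0% in the interaction. DESeq2 shares, here and below, are over the genes it gave an adjusted p. These were 13951 in diabetic against non-diabetic pregnancy in Hif1a+/- and 15002 in exposed Hif1a+/- against unexposed Wt. They were 15525 in Hif1a+/- against Wt with maternal diabetes and 27079 in the remaining comparisons, so the shares have unlike bases.

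An unadjusted p under 0.05 in the edgeR fit was counted next, as a looser description. In exposed Hif1a+/- against unexposed Wt, 3 of the 20 genes were below it and lower (Kdm2a, Kdm5a and Kdm7a) and 0 higher, beside 4.77% and 4.09% of all genes. In diabetic against non-diabetic pregnancy in Hif1a+/-, the same 3 genes were lower and 0 higher, beside 6.28% and 5.72%. Kdm5a, in both of these counts, had been listed by the study from these libraries. In Hif1a+/- against Wt with maternal diabetes, Kdm2a and Kdm4b were lower and 0 higher, beside 2.39% and 2.96%. In diabetic against non-diabetic pregnancy in Wt, Kdm4b was higher and 0 were lower, beside 1.17% and 1.61%. In Hif1a+/- against Wt without maternal diabetes there were 0 in either direction, beside 0.653% lower and 0.306% higher, and in the interaction 0 as well, beside 1.03% and 1.49%.

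**Figure D2:**
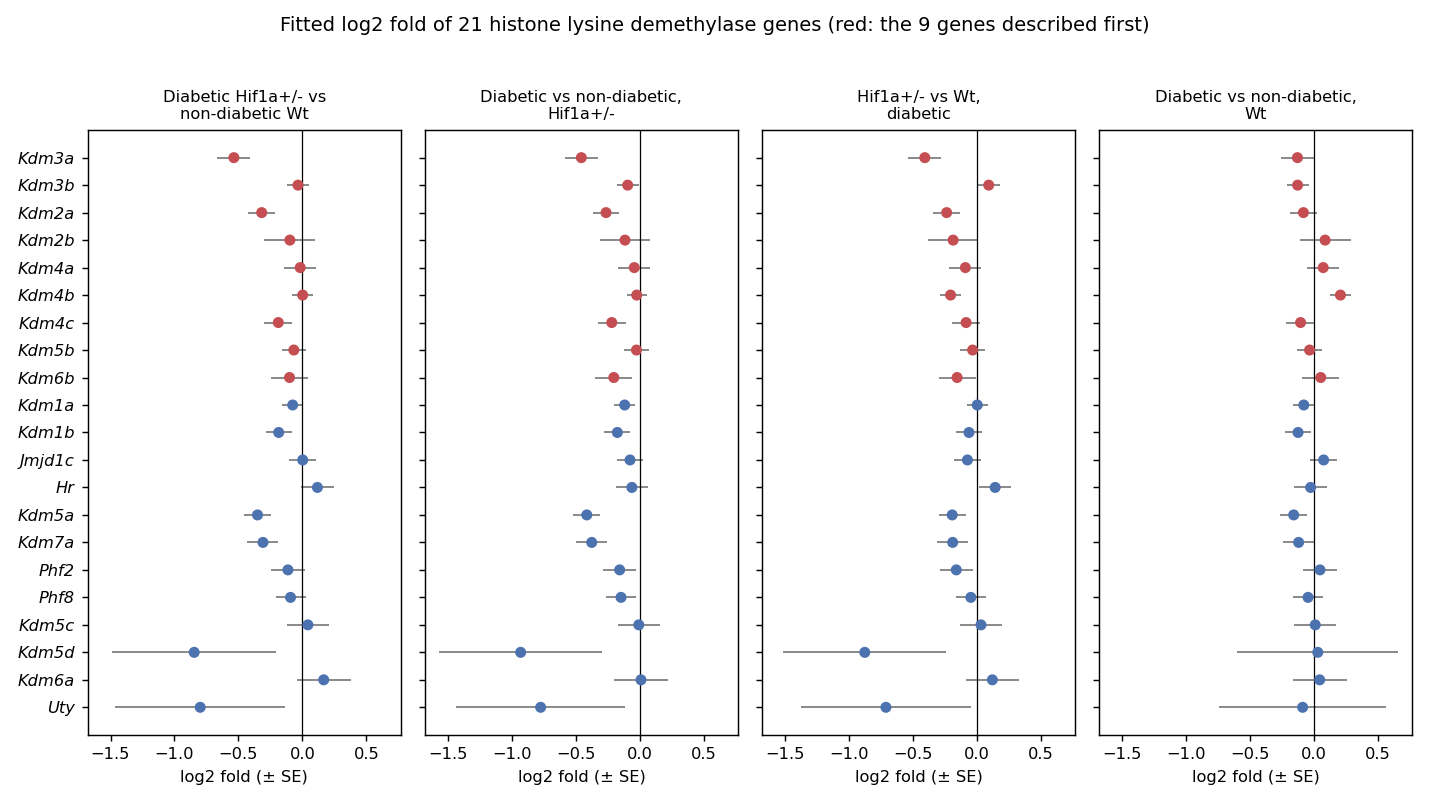
Each row is a demethylase gene and each panel a comparison; the x axis is the fitted log2 fold, points are estimates and bars are 1 SE, with the 9 genes described first in red and the other 12 in blue. Kdm3a lies farthest left among the 9 red points in the first 3 panels, at -0.54, -0.46 and -0.41, Kdm4b lies right of 0 in the last at 0.21, and the wide bars of Kdm5d and Uty rest on 1 library.

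Of the 9 genes, 8 had a lower fold in exposed Hif1a+/- than in unexposed Wt, and all 9 had a lower one in exposed than in unexposed Hif1a+/-. For the 8 genes without Kdm3a the median log2 fold was -0.08 and -0.10 in these comparisons, beside 0.00 and -0.01 over all genes tested and -0.09 and -0.12 over the genes with the longest transcripts, to which most demethylases belong. In Hif1a+/- against Wt without maternal diabetes, the direction of the folds was the other one, with 6 of the 8 higher and a median of 0.02.

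The further demethylases were read as the other genes of the family. Kdm5a, the other main demethylase of lysine 4, measured 42.7, 42.8 and 35.8 CPM in unexposed Wt, 41.4, 35.3 and 31.8 in exposed Wt, 43.5, 42.9 and 40.2 in unexposed Hif1a+/- and 33.0, 30.9 and 31.1 in exposed Hif1a+/-. The exposed Hif1a+/- mice lay below both unexposed groups, and Wt mouse 80 lay among them. The log2 fold was -0.35 ± 0.10 against unexposed Wt (unadjusted p = 0.00512, edgeR adjusted p = 0.459) and -0.41 ± 0.10 against unexposed Hif1a+/- (unadjusted p = 0.00162, edgeR adjusted p = 0.22). These p values are a description, since the study had already listed Kdm5a from these libraries.

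Kdm7a, which acts on lysines 9 and 27, measured 40.1, 33.5 and 32.7 CPM in exposed Hif1a+/- and from 43.7 to 47.3 in unexposed Hif1a+/-, with no overlap and a log2 fold of -0.37 ± 0.12 (unadjusted p = 0.00845, edgeR adjusted p = 0.299). Against unexposed Wt, which ranged from 37.3 to 48.6, it overlapped and the log2 fold was -0.31 ± 0.12 (edgeR adjusted p = 0.525). Its relatives Phf2, with group means between 59.3 and 66.2 CPM, and the X-linked Phf8, between 18.8 and 20.8, had log2 folds of -0.11 ± 0.13 and -0.09 ± 0.12 for exposed Hif1a+/- against unexposed Wt.

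The amine oxidases Kdm1a and Kdm1b had log2 folds of -0.08 ± 0.08 and -0.19 ± 0.10 in the same comparison. Kdm1a overlaps Luzp1 and Kdm1b overlaps Dek, both on the other strand. Jmjd1c and Hr, the remaining relatives of Kdm3a, had log2 folds of 0.00 ± 0.11 and 0.12 ± 0.13. Jmjd1c overlaps Reep3. Kdm4d, a gene known mainly from testis, had 4 reads in the 12 libraries and at most 1 in any, and was not tested.

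The sex-linked demethylases set 1 library apart. In exposed Hif1a+/- mouse 72, the Y-linked Kdm5d and Uty measured 0.132 and 0.22 CPM, whereas in the other 11 libraries they lay between 15.0 and 22.5 and between 22.6 and 31.5. Their X-linked partners were at their highest in the same library, Kdm5c at 72.8 CPM against 45.2 to 63.4 in the others, and Kdm6a at 28.6 against 14.5 to 22.2. Both X-linked genes are known to escape silencing of the second X. This library also held 3599 reads of Xist, the RNA that silences an X in female cells, and 26 of 4 Y-linked genes, while Y-linked reads exceeded those of Xist in the other 11.

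**Figure D3:**
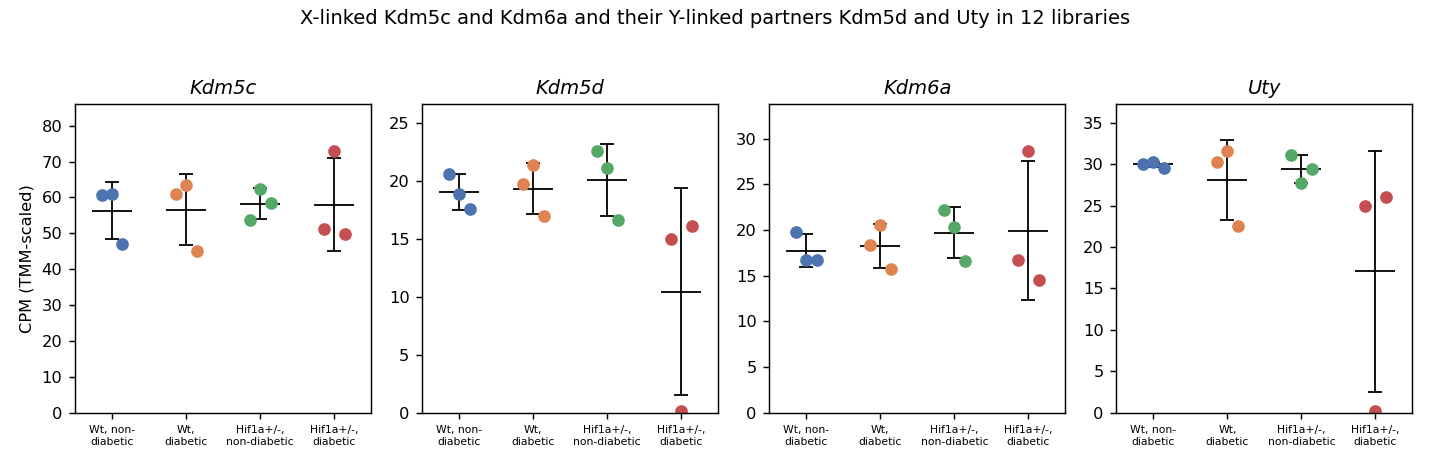
Panels show Kdm5c and Kdm6a (X-linked) and Kdm5d and Uty (Y-linked), with CPM (TMM-scaled, axis from 0) on the y axis and the 4 groups on the x axis; points are mice, the long dash is the mean and the bars are the SD of 3 mice. In exposed Hif1a+/- a single mouse has 0.132 and 0.22 CPM of the Y-linked genes and the highest value of both X-linked ones.

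The folds of these 4 genes depended strongly on the library of mouse 72, though Kdm5d and Uty kept a smaller negative fold without it. For exposed Hif1a+/- against unexposed Wt, the log2 fold of Kdm5d moved from -0.85 ± 0.64 to -0.28 ± 0.15 without it, and that of Uty from -0.80 ± 0.66 to -0.23 ± 0.13. Kdm6a turned from 0.17 ± 0.21 to -0.18 ± 0.15 and Kdm5c from 0.04 ± 0.16 to -0.15 ± 0.15. None of these passed the threshold with or without the library. Kdm3a was at -0.54 ± 0.13 with mouse 72 and -0.52 ± 0.15 without it, Kdm2a at -0.32 ± 0.10 and -0.28 ± 0.12, and Kdm5a at -0.35 ± 0.10 and -0.33 ± 0.12. Kdm7a moved from -0.31 to -0.26 ± 0.14. The folds of these autosomal genes thus moved little. Without the library the edgeR unadjusted p of Kdm7a was 0.0796 in this comparison. That of Kdm2a was 0.0859 against unexposed Hif1a+/- and 0.112 against exposed Wt. The counts at an unadjusted p under 0.05 therefore rested in part on mouse 72.

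Groups that do not overlap were counted as a second description. In exposed Hif1a+/- against unexposed Wt, 4 of the 20 genes without Kdm3a lay wholly lower (Kdm2a, Kdm5a, Kdm5d and Uty) and 0 wholly higher, beside 7.11% and 7.47% of all genes. Kdm5a, already listed by the study from these libraries, is in these counts as a description only. In diabetic against non-diabetic pregnancy in Hif1a+/-, 6 lay wholly lower (Kdm2a, Kdm4c, Kdm5a, Kdm5d, Uty and Kdm7a), which is 30.0% of the 20, beside 13.2% of all genes. Demethylase transcripts are long. When the genes tested were split into 4 equal classes by their longest annotated transcript, 17 of the 21 tested demethylases were in the longest class, above 4725.5 bases. Of all genes in that class, 26.4% lay wholly lower in the same comparison and 10.3% in exposed Hif1a+/- against unexposed Wt. The 30.0% is near the share of the long genes. In Hif1a+/- against Wt with maternal diabetes, 3 lay wholly lower (Kdm4b, Kdm4c and Kdm5d, beside 3.62%) and Kdm3b wholly higher (beside 4.32%). In diabetic against non-diabetic pregnancy in Wt, Kdm4b lay wholly higher, beside 2.14%, and 0 wholly lower, beside 3.4%. In Hif1a+/- against Wt without maternal diabetes 0 of the 20 lay wholly on either side, beside 2.26% lower and 2.55% higher.

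Transcript length moved with the levels of Kdm3a across libraries. The length index of a library is the median log2 level of genes in the longest class minus that in the shortest, each relative to the gene's mean over the 12 libraries. It was 0.19, 0.14 and -0.18 in unexposed Wt, 0.00, 0.17 and -0.26 in exposed Wt, 0.14, 0.09 and 0.07 in unexposed Hif1a+/-, and -0.07, -0.15 and -0.14 in exposed Hif1a+/-. The 2 Wt libraries with the lowest index, mice 80 and 89, also had the lowest Kdm3a of the Wt mice. Genes of the longest class, to which Kdm3a belongs with 4853 bases, had a median log2 fold of -0.09 in exposed Hif1a+/- against unexposed Wt and -0.12 against unexposed Hif1a+/-, and those of the shortest class 0.08 and 0.11. With the index as a covariate the log2 fold of Kdm3a was -0.35 against unexposed Wt and -0.22 against unexposed Hif1a+/-, in place of -0.54 and -0.46. The part of the length index in the Kdm3a difference cannot be told apart from the group within exposed Hif1a+/-, where all 3 libraries had a negative index.

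The genes most like Kdm3a were chosen by Pearson's r of the log2 level over the 12 libraries, among 10362 genes with a mean of at least 5 CPM. Kdm2a came first of all of them, with r = 0.971 (Spearman's rho 0.951), followed by Zfp532 (0.966), Pm20d2 (0.957), Kat6a (0.953), a histone acetyltransferase, and Tent4b (0.953). The most opposite was H3f3b (-0.977), which encodes the replacement histone H3.3, followed by 2310011J03Rik (-0.951), Cnppd1 (-0.941), Nol12 (-0.931) and Pcolce2 (-0.93). These values chose the genes and the 12 libraries share the group differences and the length index, so no p is given. The study had also placed Pm20d2 in a list made from these libraries. With the length index, r was 0.834 for Kdm3a and 0.89 for Kdm2a. With the first principal component, the axis of largest variance over the genes tested (23.92%), r was -0.901 for Kdm3a. The part of these axes in the likeness was not tested.

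After each group's mean had been subtracted, the most alike were Rnf214 (0.971), Ripor1 (0.966), Cdr2 (0.965), Hey1 (0.964) and Rnf24 (0.964), and the most opposite 2210016L21Rik (-0.979), Cdk5rap3 (-0.965), H3f3b (-0.964), Gm1821 (-0.951) and Exosc5 (-0.949). Kdm2a was then at 0.944, in place 39. Kdm2a and H3f3b, both chosen by r, thus had a high positive and a high negative r with and without the group means. The r without the means pools the 4 groups and describes no single one. Kdm3a spread most in Wt, with an SD of 5.68 and 6.32 CPM unexposed and exposed. In Hif1a+/- the SD was 1.61 and 0.721. Of the other demethylases Kdm5a (0.856), Kdm7a (0.851), Kdm1b (0.753) and Phf2 (0.721) were above 0.7 over the 12 libraries, whereas Kdm3b was at 0.279 and Kdm4b at 0.241.

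**Figure D4:**
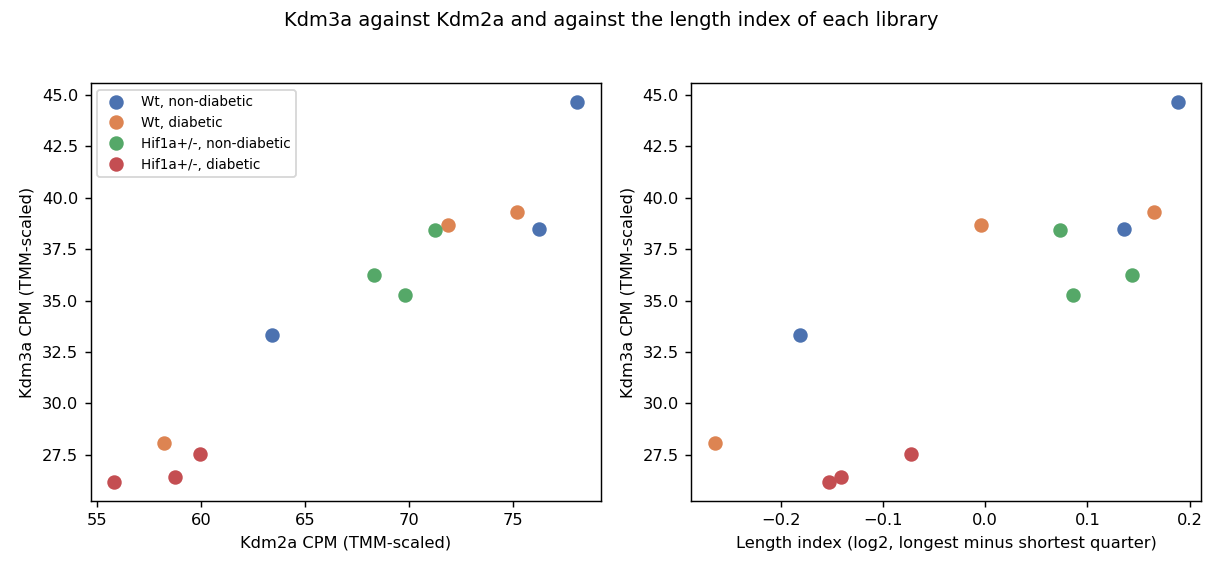
Both panels have Kdm3a in CPM (TMM-scaled) on the y axis, from about the lowest value up and not from 0; the x axis is Kdm2a in CPM on the left and the length index of the library (log2) on the right, and each point is a mouse coloured by group. Kdm3a is higher where Kdm2a is, over a Kdm2a range of 55.8 to 78.1 CPM, and Wt mouse 80, with the lowest length index of -0.26, sits beside the 3 exposed Hif1a+/- mice at 28.1 CPM of Kdm3a.

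The enzymes that write the marks were listed beside those that remove them. In exposed Hif1a+/- against unexposed Wt, 0 of 6 methyltransferases of lysine 9, of 8 of lysine 4, of 4 Polycomb genes of lysine 27 and of 5 of lysine 36 passed the threshold by edgeR or DESeq2. At an unadjusted p under 0.05 there were 0, 2, 0 and 2, all lower, beside 4.77% of all genes lower and 4.09% higher. Their median log2 folds were -0.06, -0.14, -0.08 and -0.23. The largest folds for lysine 9 were 0.33 ± 0.23 for Setdb2 and -0.28 ± 0.14 for Setdb1. For lysine 4 they were -0.37 ± 0.14 for Kmt2e and -0.37 ± 0.16 for Kmt2d, and for the Polycomb genes -0.21 ± 0.12 for Eed and -0.13 ± 0.12 for Suz12. For lysine 36 they were -0.36 ± 0.11 for Setd2 and -0.30 ± 0.14 for Ash1l. Several of these rested in part on 1 mouse: Setdb1 was at -0.11 without mouse 42, and Kmt2e and Ash1l at -0.22 and -0.18 without mouse 25. Setd2, Kmt2d, Kmt2e and Ash1l have transcripts of 7317 bases or more and so belong to the longest class too. The study had placed Setd2 in a list made from these libraries. In diabetic against non-diabetic pregnancy in Hif1a+/-, DESeq2 passed 1 of the 5 genes of lysine 36 and 0 of the others. Over all genes 1.44% passed there.

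Of 20 textbook HIF-1 targets, 12 were lower and 8 higher in exposed Hif1a+/- than in unexposed Wt, with a median log2 fold of -0.10, and 0 passed the threshold by edgeR or DESeq2, with 5 at an unadjusted p under 0.05, all lower, beside 4.77% of all genes lower and 4.09% higher. The largest folds were -0.76 ± 0.33 for the growth factor Vegfa and -0.76 ± 0.23 for the stress gene Ddit4. In diabetic against non-diabetic pregnancy in Hif1a+/-, 10 were lower and 10 higher, with a median of 0.01. With maternal diabetes, 19 of the 20 were lower in Hif1a+/- than in Wt, with a median of -0.19, and 2 of them at an unadjusted p under 0.05, beside 2.39% of all genes. Without maternal diabetes 15 were lower and 5 higher in Hif1a+/- than in Wt, with a median of -0.10. Of these 1 was lower at an unadjusted p under 0.05, beside 0.653% of all genes. Over all genes tested the median was -0.0037 in exposed Hif1a+/- against unexposed Wt. It was -0.0059 in diabetic against non-diabetic pregnancy in Hif1a+/-. In Hif1a+/- against Wt it was -0.0084 with maternal diabetes and 0.0019 without. The 20 targets were read in the same few mice, so their directions are not independent of one another.

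The genes linked to Kdm3a in other work include Timp1, an inhibitor of matrix proteases, Ppara, a regulator of fatty acid oxidation, and contractile genes of smooth muscle. Of 9 listed 8 were tested and 0 passed by edgeR, with 5 at an unadjusted p under 0.05, 4 lower and 1 higher in exposed Hif1a+/- against unexposed Wt, beside 4.77% and 4.09% of all genes. By DESeq2 1 passed in this comparison, Timp1, beside 0.453% of all genes. In diabetic against non-diabetic pregnancy in Hif1a+/- DESeq2 passed 3 of the 8, beside 1.44% of all genes. In Hif1a+/- against Wt with maternal diabetes it passed 1, beside 0.155%. The folds that follow are again those of exposed Hif1a+/- against unexposed Wt. The largest log2 folds were 1.16 ± 0.24 for Timp1 and -0.81 ± 0.35 for Ppara, which was at -0.43 without mouse 25 and at -1.13 without mouse 89. Timp1, Myh11 and Myocd of this list had been selected by the study from these libraries, so their direction is not independent evidence.

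Markers of other cells and of RNA handling are given as log2 folds of exposed Hif1a+/- against unexposed Wt. The 10 macrophage markers summed to between 251 and 325 CPM in unexposed Wt and between 367 and 586 in exposed Hif1a+/-, and all 10 had a higher fold there, with 0.93 ± 0.25 for C1qb and 0.90 ± 0.28 for Lyve1 on the log2 scale. All 8 fibroblast markers had a higher fold, with 0.47 ± 0.25 for Col3a1 and 0.46 ± 0.20 for Col1a1 (0.21 and 0.22 without mouse 72), and their sums lay between 1301 and 1811 CPM in unexposed Wt and between 1511 and 2152 in exposed Hif1a+/-. Of 6 endothelial markers 4 were lower, with Vwf at 0.78 ± 0.21 and Cdh5 at -0.21 ± 0.12, and of 5 smooth muscle markers 4 were lower, with Myh11 at -0.70 ± 0.24 and Tagln at -0.40 ± 0.18.

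Red cell markers were lower in all 4 tested, with Alas2 at -2.56 ± 0.93 and Hbb-bt at -2.52 ± 0.99, and their sum was 7323 CPM in Wt mouse 25 and 491 in the lowest unexposed Wt mouse. Without mouse 25 the log2 fold was -0.08 for Alas2 and 0.14 ± 0.66 for Hbb-bt. Adipocyte markers stayed at or under 7.7 CPM in sum, with Lep at 0 in exposed Hif1a+/-, Plin1 at -0.68 ± 0.54 (-0.20 without mouse 66) and Cfd at 0.63 ± 0.45 (0.24 without mouse 72 and 1.27 without mouse 89). Of 6 muscle markers listed as ventricular 4 were higher, with Myl3 at 0.12 ± 0.14 and Myl2 at 0.11 ± 0.15. All 4 atrial markers were lower, with Myl7 at -0.47 ± 0.79 (from -1.49 without mouse 77 to -0.09 without mouse 72) and Myl4 at -0.10 ± 0.46. Of 9 genes that respond to handling of tissue and RNA 6 were lower, with Hspa1b at -2.26 ± 1.24 and Hspa1a at -1.80 ± 1.27. Without mouse 42 these were -0.88 and -0.49, and without mouse 66 both were -3.17. Xist and Ddx3y, at 5.37 ± 1.55 and -0.94 ± 0.77, were at 0.38 and -0.36 without mouse 72. None of these genes passed the threshold by edgeR, and by DESeq2 C1qb, C1qc, Vwf and the RNA handling gene Clk1 did. In diabetic against non-diabetic pregnancy in Hif1a+/- DESeq2 passed 5 of 10 macrophage, 1 of 6 endothelial and 1 of 5 smooth muscle markers. Over all genes 1.44% passed there. In Hif1a+/- against Wt with maternal diabetes it passed 1 of 8 fibroblast markers and 1 of 9 RNA handling genes, beside 0.155%. The part of these cells and of handling in the Kdm3a and Kdm2a values was not tested. The study had placed C1qa, C1qb, C1qc, Mrc1, Lyve1, Vwf, Col3a1, Myh11 and Clk1 in lists made from these libraries. Their direction is therefore not independent evidence.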

How the data were processed

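RNA-seq of 12 LV samples was used. The authors trimmed reads with Trimmomatic, removed ribosomal and mitochondrial reads with SortMeRNA, aligned the rest with STAR 2.5.2b to GRCm38 and counted them per GENCODE M8 gene with htseq-count in union mode. The deposited counts are whole reads per gene without normalization. Their normalized tables were not used. The tally rows (reads that were not unique, ambiguous or in no gene, 20.2% to 24.2% of the total together) were left out. Symbols came from GENCODE M21 (46488 of 46983 genes), as did positions and the longest transcript per gene.

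Groups came from the labels, and animal numbers name the replicates. Genes were tested with the quasi-likelihood F test of edgeR (version 4.0.16, R 4.3.3; TMM, default filter on low counts, 14706 genes, 12 samples in 1 fit, 8 residual degrees of freedom), with Benjamini-Hochberg adjustment over all genes and a threshold of 0.1. SE is the log2 fold over the root of the F value. Alternatives were DESeq2 1.42.0, its size factors in edgeR, no filter, a threshold of 0.05 and leaving out each mouse; the length index as covariate and the median of the same length class were added after seeing the data. Scripts were tested on simulated data.

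The biological coefficient of variation was 13.7%. Samples of 1 group differed beyond sampling noise in every pair (13071 genes, chi-square divided by its degrees of freedom from 5.54 to 47.3). Members and lists were chosen with earlier results of these data known. All demethylases were named. The other lists were methyltransferases of lysines 9, 4, 27 and 36, HIF-1 targets, Kdm3a-linked genes, RNA handling and sex-linked genes. The cell lists were macrophage, fibroblast, endothelial, smooth muscle, adipocyte, red cell, ventricular and atrial muscle. In each, the 2 genes with the largest fold in exposed Hif1a+/- against unexposed Wt were named, and any past the threshold there. Genes past it only in other comparisons were counted. For likeness the 5 highest and 5 lowest r were named. Promoter letters came from RefSeq (GRCm38.p6). Python 3.11.15 with pandas 2.3.3 and matplotlib 3.10.9 made tables and plots.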

Additional observations from a re-analysis of the deposited data

How the results depend on the processing

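Without the filter on low counts, edgeR called 129 genes in diabetic against non-diabetic pregnancy in Wt, 592 in Hif1a+/-, 33 and 220 in Hif1a+/- against Wt without and with maternal diabetes, 445 in exposed Hif1a+/- against unexposed Wt and 78 in the interaction, in place of 0 in each. Among the demethylases without Kdm3a it then called 3 (Kdm5a, Kdm5d and Uty) in diabetic against non-diabetic pregnancy in Hif1a+/-, 2 (Kdm5d and Uty) in exposed Hif1a+/- against unexposed Wt and 1 (Kdm5d) in Hif1a+/- against Wt with maternal diabetes; the cause was not tested. DESeq2 called 4, 201, 1, 24, 68 and 0 genes in the same order of comparisons, and 1 demethylase, Kdm5a. Leaving out each mouse gave between 0 and 38 genes in diabetic against non-diabetic pregnancy in Hif1a+/- (above 0 without mice 7, 80, 66 and 72, with 38 without mouse 72), 0 and 2 in Hif1a+/- against Wt with maternal diabetes (above 0 without mice 7, 66 and 72), 0 and 1 in exposed Hif1a+/- against unexposed Wt (1 without mice 7, 66 or 72) and in the interaction (1 without mouse 7), and 0 in the other 2; no demethylase was called.

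The log2 fold of Kdm3a with each mouse left out lay between -0.64 and -0.42 for exposed Hif1a+/- against unexposed Wt, -0.48 and -0.41 against unexposed Hif1a+/-, -0.54 and -0.32 against exposed Wt and -0.47 and -0.23 for the interaction. It lay between -0.23 and 0.01 for diabetic against non-diabetic pregnancy in Wt (highest without mouse 80) and between -0.18 and 0.02 for Hif1a+/- against Wt without maternal diabetes (highest without mouse 25). The length index as covariate moved the fold of Kdm3a to -0.35 against unexposed Wt and to -0.22 against unexposed Hif1a+/-; less the median of its length class it was -0.44 and -0.34.

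In exposed Hif1a+/- against unexposed Wt, leaving out 1 mouse turned Kdm5c to -0.07 (mouse 89) and -0.15 (mouse 72), in a range of -0.15 to 0.14, and Kdm6a to -0.18 (mouse 72), in a range of -0.18 to 0.35. Without mouse 25, Hbb-bt turned to 0.14 (range -3.03 to 0.14), Myl3 to -0.0139 (range -0.0139 to 0.21) and Myl2 to -0.0145 (range -0.0145 to 0.20). Myl4 turned to 0.23, 0.14 and 0.11 without mice 42, 66 and 72 (range -0.63 to 0.23). With the length index as covariate Myl3 turned to -0.035 and Myl2 to -0.0795. Each mouse belonged to 1 group, and the sample labels do not give its litter. Littermates could therefore not be paired, and litter was not part of the fit. With 3 mice a group, the spread between mice was beyond sampling noise over the 13071 genes compared. How far the number of reads limited single genes was not tested.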
